A study of Mus musculus with 6 samples.

Results

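The cytochrome P450 family was examined in interscapular brown fat, the heat-producing depot between the shoulder blades, by sequencing of messenger RNA. Members were the rows whose symbol is Cyp followed by a family number, a subfamily letter or letters and a gene number, leaving out symbols marked as pseudogenes and Cyp51. The table held 94 such genes among 35975 rows with counts; 1 of them, Cyp2d13, with 0 counts in the 4 libraries used, is annotated in RefSeq as a transcribed pseudogene. Of these, 20 had 10 or more reads in at least 2 of the 4 libraries used, and they are described one by one. The mice were of C57BL/6 background, in 2 groups by the genotype label. Ctrl mice are given as controls with no further detail, so whether they carry floxed Olfm4 or the Cre transgene is unknown, and the titles of both groups carry an Olfm4 wild-type tag. Olfm4CKO mice carry floxed Olfm4, which encodes the secreted glycoprotein olfactomedin 4, and Cre recombinase under the promoter of Ucp1. That promoter is active in brown adipocytes, so the other cells of the depot keep the gene. Age, sex and diet are not given in the labels. The study set the groups side by side to ask what loss of Olfm4 does to this fat.

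P450 enzymes are heme proteins that insert oxygen into small molecules, with electrons from P450 oxidoreductase in the endoplasmic reticulum or from ferredoxin in mitochondria. Some make or break down steroids, oxysterols, vitamin D, retinoic acid and fatty acid signals, and have fixed roles in many tissues. Others oxidise drugs and pollutants, and are switched on by receptors that sense these compounds. Cyp2b10 is the classic target of the receptor CAR in mouse liver, and Cyp1a1 that of the aryl hydrocarbon receptor.

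The labels give 3 libraries per group, but 2 per group could be used. The replicate 3 columns did not follow the gene names, with rank correlations of -0.0209 to -0.0156 with the other libraries against 0.94 to 0.9474 among those. Total counts of the 4 libraries used lay between 15346705 and 17309325. Olfm4 had 0 counts in all 4, so the targeted gene cannot check the labels. The libraries differed in transcripts of the sex chromosomes. Ddx3y, on the Y chromosome, had 81.4 CPM (read counts scaled to library size, TMM-normalised) in Ctrl replicate 1 and 0 counts in the other 3 libraries. Xist had 0 counts in Ctrl replicate 1, 49.5 CPM in Ctrl replicate 2, and 215 and 207 CPM in Olfm4CKO replicates 1 and 2. By these reads Ctrl replicate 1 had the pattern of a male and the other 3 libraries that of females. Sex was thus not balanced between the groups, and its part in the differences between them was not tested. Of the 20 described genes, 5 were highest in Ctrl replicate 1 and 4 lowest there. The log2 fold changes of Cyp2b10 and Cyp2e1, highest there, and of Cyp2d22, lowest there, are therefore also given without that library. Without it the log2 fold change turned from -0.11 to 0.71 for Cyp1b1 and from 0.05 to -0.19 for Cyp4f16. The labels do not state that each library is a different mouse. Ctrl replicate 1 had Y-linked reads and Ctrl replicate 2 had none, so these cannot be of the same mouse. For the Olfm4CKO libraries this is unknown. A p-value here therefore speaks of library-to-library spread, part of which may be technical.

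Most P450 genes had no reads in this tissue. Of the 94 genes, 51 had 0 counts in all 4 libraries and 23 had some reads but too few to be described. A count of 0 allows up to 0.173 to 0.195 CPM per library (3 counts of the total, counting error only). Some subfamilies known for drug metabolism in liver had many reads: Cyp1a (5078 counts over the 4 libraries), Cyp2d (3694), Cyp2e (1894) and Cyp2b (1524). Others were nearly silent. The 15 Cyp2c genes had 5 counts in all, and the 7 Cyp3a genes had 8. None of the 4 Cyp2a genes, with 1 count in all, and none of the 5 Cyp4a genes, with 35 counts, was described. The reads came from a small number of genes in families 1, 2 and 4 and from single genes of families 20, 26, 27 and 39. Within a genomic cluster, 1 or a few genes carried the reads. In the Cyp2d cluster (chromosome 15, 82370527 to 82794452, GRCm38) Cyp2d22 was read and the other 8 of 9 genes had 0 counts. In the Cyp2j cluster on chromosome 4 reads lay in Cyp2j6 and Cyp2j9, and 4 of 7 genes had 0 counts.

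**Figure D1:**
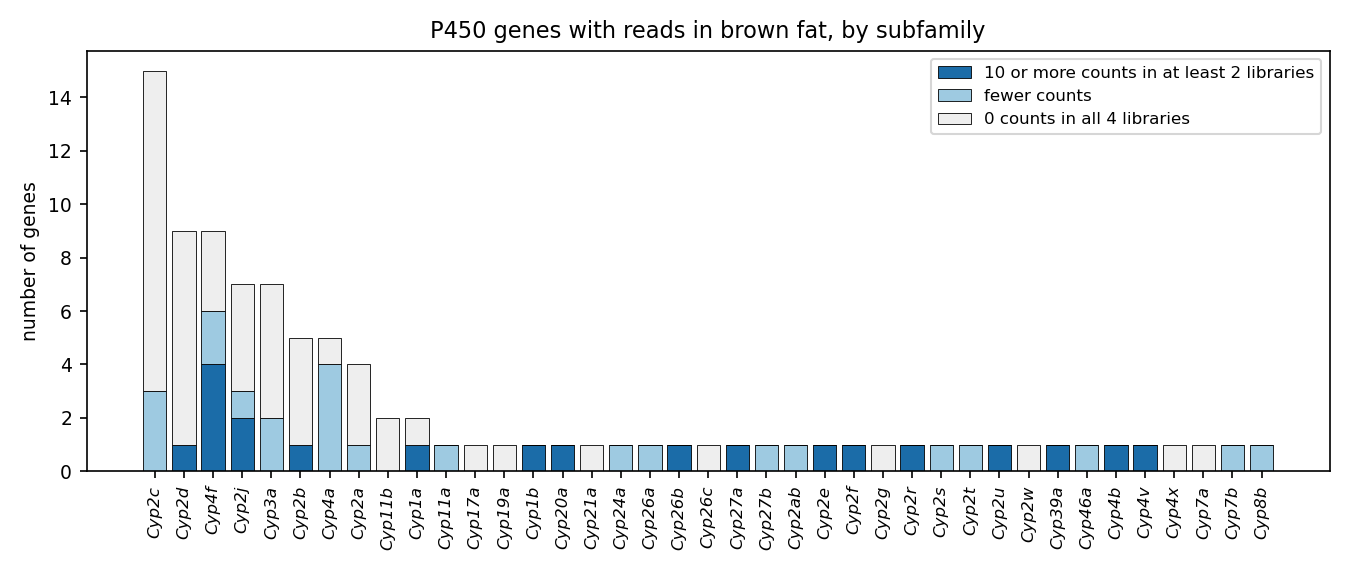
Number of P450 genes in each subfamily, stacked by whether the gene had 10 or more counts in at least 2 of 4 libraries, fewer counts, or 0 counts in all 4. The large subfamilies Cyp2c and Cyp3a hold no described gene, while Cyp4f holds 4 and Cyp2j 2.

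Promoter sequences are shown for 4 genes picked after their values were seen: Cyp2b10, Cyp2e1 and Cyp2f2, whose fold change intervals leave out 0, and Cyp1a1, which had the highest CPM of any member in any library. Each is the 300 bases from 250 before to 50 after the annotated start, on the plus strand, from RefSeq on GRCm38.p6. Capitals mark matches, on either strand, to TATAAA (the TATA box), GCGTG (the core bound by the aryl hydrocarbon receptor) and TTGCNNAA (a motif bound by C/EBP factors). No match overlapped another.
Cyp2b10 (chr7:25897408-25897707): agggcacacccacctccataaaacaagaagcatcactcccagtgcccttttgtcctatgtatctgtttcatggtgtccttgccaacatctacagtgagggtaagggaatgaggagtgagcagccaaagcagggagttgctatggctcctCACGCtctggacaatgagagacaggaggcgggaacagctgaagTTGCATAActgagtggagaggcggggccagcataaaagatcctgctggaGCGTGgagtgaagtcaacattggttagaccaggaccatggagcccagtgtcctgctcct
Cyp2e1 (chr7:140763569-140763868): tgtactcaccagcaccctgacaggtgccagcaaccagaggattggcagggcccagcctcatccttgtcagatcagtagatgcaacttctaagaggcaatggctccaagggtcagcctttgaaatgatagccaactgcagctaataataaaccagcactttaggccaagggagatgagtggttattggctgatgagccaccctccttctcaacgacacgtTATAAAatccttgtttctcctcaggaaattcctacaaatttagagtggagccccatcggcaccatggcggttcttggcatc
Cyp1a1 (chr9:57697363-57697662): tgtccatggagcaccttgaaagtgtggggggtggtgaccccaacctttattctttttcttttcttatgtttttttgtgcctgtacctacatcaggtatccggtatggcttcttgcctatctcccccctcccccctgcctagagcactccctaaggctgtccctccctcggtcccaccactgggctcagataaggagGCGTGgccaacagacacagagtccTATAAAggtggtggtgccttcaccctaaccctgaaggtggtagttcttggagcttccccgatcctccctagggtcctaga
Cyp2f2 (chr7:27119705-27120004): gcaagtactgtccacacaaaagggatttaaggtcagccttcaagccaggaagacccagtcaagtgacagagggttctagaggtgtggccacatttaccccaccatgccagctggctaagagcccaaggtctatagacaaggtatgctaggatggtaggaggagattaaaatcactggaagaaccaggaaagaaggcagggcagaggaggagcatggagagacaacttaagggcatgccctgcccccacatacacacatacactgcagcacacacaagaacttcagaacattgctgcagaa

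The 4 windows held different motifs. TATAAA lay at position -30 from the start in Cyp1a1 and at -31 in Cyp2e1, and GCGTG at -54 in Cyp1a1. Cyp2b10 held the C/EBP letters as TTGCATAA at -58, and the aryl hydrocarbon receptor core at -101 and -9. No match to the 3 motifs was found in the Cyp2f2 window. These letters are common: GCGTG was in 32.4% of 32851 promoter windows of the same length, TATAAA in 13.6% and TTGCNNAA in 10.8%. The table held windows for 16 of the 20 described genes, of which 8 had a match to the aryl hydrocarbon receptor core, 3 to the TATA box and 3 to the C/EBP letters. Cyp2d22, Cyp4f17, Cyp39a1 and Cyp2u1 had no entry. The windows do not reach distant enhancers.

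Per kilobase of exon (GENCODE vM21 lengths), the highest mean P450 level in Ctrl was that of Cyp27a1, the mitochondrial sterol hydroxylase, with 27.7 and 28.2 CPM per kb in replicates 1 and 2. Cyp2e1 had 32.8 and 10.8, Cyp1a1 23.0 and 19.6, Cyp2b10 31.2 and 7.92, and Cyp4b1 17.7 and 17.6 CPM per kb. Both Ctrl values of Cyp27a1 lay above both of Cyp1a1, and those above both of Cyp4b1. The 2 Ctrl values of Cyp2e1, and those of Cyp2b10, lay on either side of all of these, so neither gene has a place in that order. In Olfm4CKO the highest mean level per kb was that of Cyp1a1, with 56.6 and 15.7 CPM per kb in replicates 1 and 2, followed by Cyp27a1 with 18.8 and 25.7. Cyp2b10 had a mean of 2.87 CPM per kb there, below Cyp4v3 and Cyp20a1. The lowest in Ctrl were Cyp2r1 and Cyp2f2, with means of 0.292 and 0.334 CPM per kb.

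**Figure D2:**
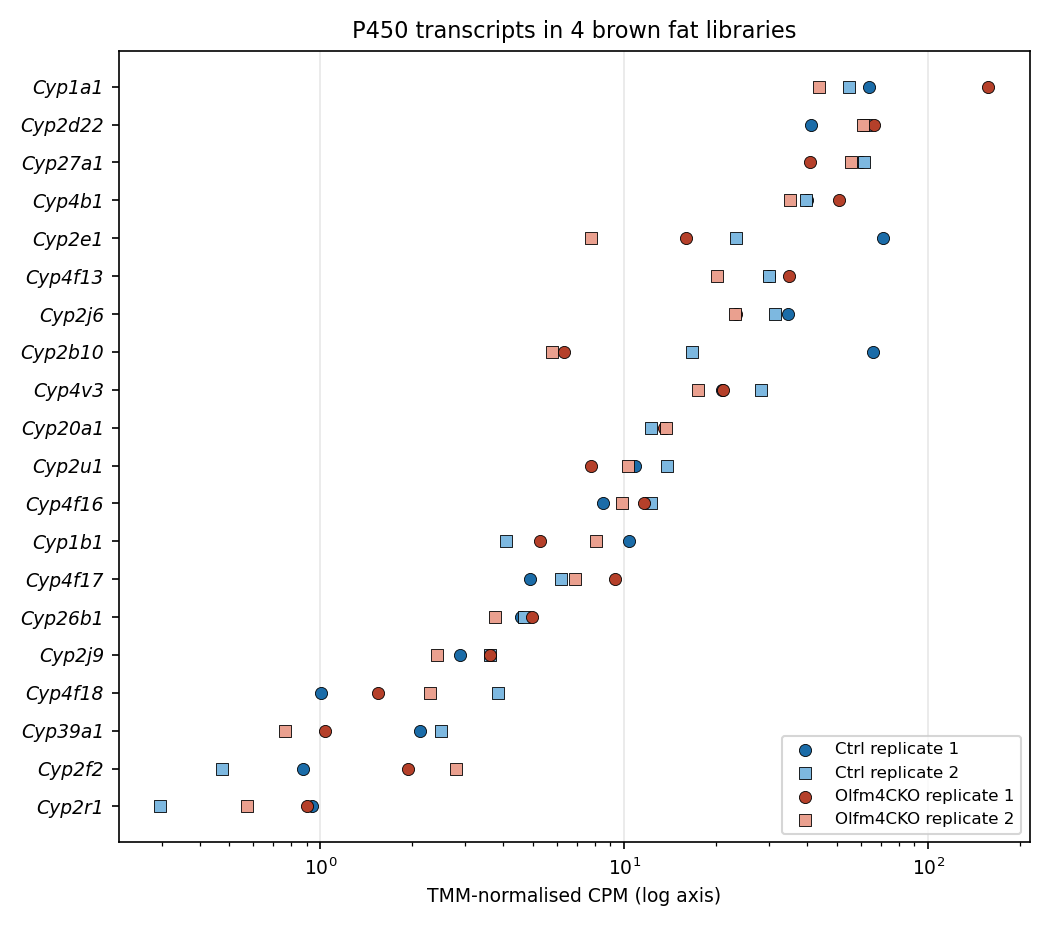
TMM-normalised CPM (log axis) of the 20 described P450 genes in each of the 4 libraries, ordered by mean; CPM is not divided by gene length. Some points lie under others. Cyp2b10 and Cyp2e1 have 1 point, Ctrl replicate 1, far to the right of the rest, as Cyp1a1 has for Olfm4CKO replicate 1, and the 4 points of Cyp20a1 lie close together.

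No member of the family passed the test on group. Of the 20 described genes, all of which were tested, 0 had an adjusted p below 0.05 in edgeR's quasi-likelihood fit, and 0% of all 13573 genes tested did. At an unadjusted p below 0.05 there were 3 members, against 2.11% of all genes. DESeq2 called 1 member, Cyp2b10, where it called 0.0189% of all genes, as did edgeR with the replicate number as a block, where 0.0295% of genes were called. The other genes called by DESeq2 were the Y-linked Ddx3y, Eif2s3y and Uty. These had reads only in Ctrl replicate 1, the library where Cyp2b10 was highest. With the block the other genes called were Xist, Erdr1 and A730049H05Rik. By limma-voom 0 were called. The groups did not overlap for 8 members, against 24.6% of all genes tested. Of the 8, 6 were lower and 2 higher in Olfm4CKO, against 12.8% and 11.8% of all genes. The median log2 fold change was -0.11 over the members and -0.01 over all genes tested, with 12 of 20 members and 51.4% of all genes below 0. The 95% interval included 0 for 17 members and lay within 1 log2 unit on either side of 0 for 4. These intervals were 1.42 to 3.66 log2 units wide, and for the other 16 they reached a 2-fold difference in at least 1 direction.

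**Figure D3:**
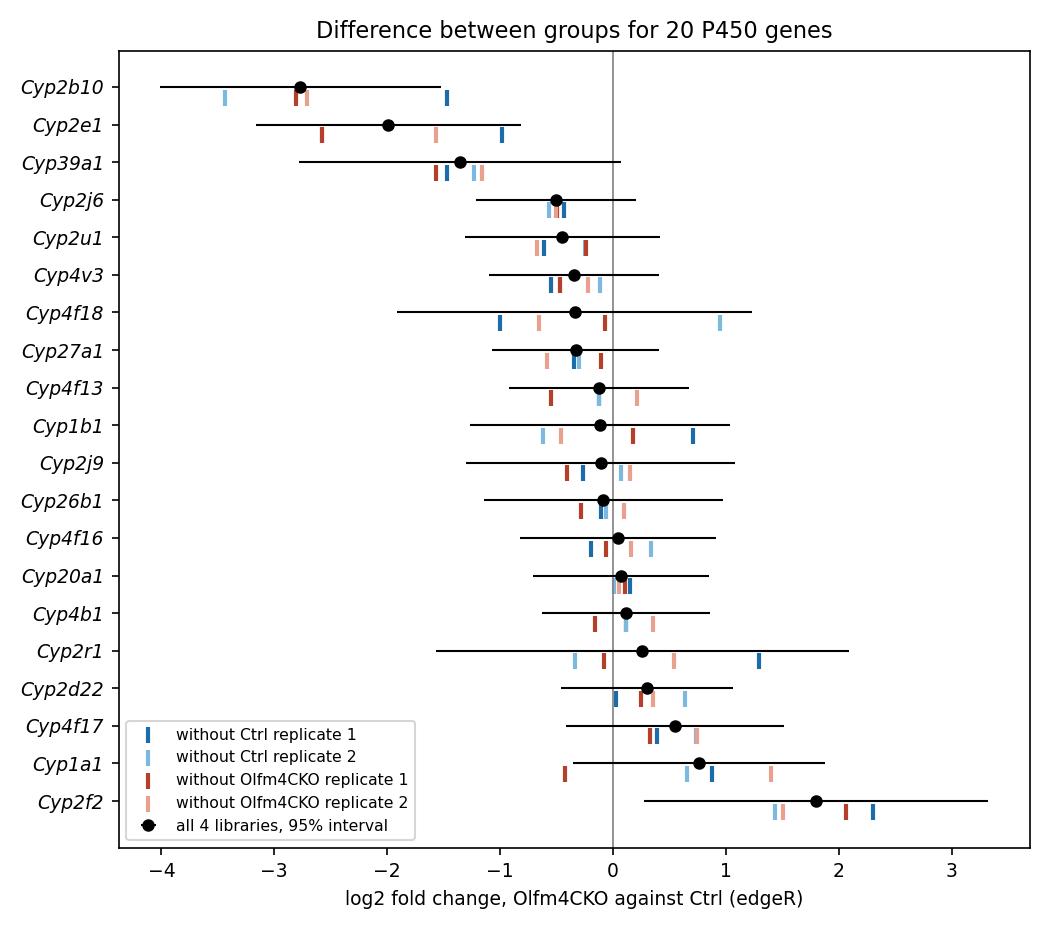
Log2 fold change of each described P450 gene in Olfm4CKO against Ctrl, with its 95% interval from edgeR (black) and the value when each library is left out in turn (coloured ticks). Cyp2b10, Cyp2e1 and Cyp2f2 have intervals that leave out 0, and for 9 genes at least 1 tick lies on the other side of 0 from the black point.

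Among the genes tested, which did not include the Y-linked Ddx3y, Cyp2b10 had the smallest p (edgeR unadjusted p = 4.78e-04). The enzyme (chromosome 7, 25897658 to 25926624) oxidises drugs and is induced by phenobarbital in mouse liver. It had 65.9 and 16.7 CPM in Ctrl replicates 1 and 2 and 6.33 and 5.79 CPM in Olfm4CKO replicates 1 and 2. Both Ctrl libraries lay above both Olfm4CKO libraries, but the 2 Ctrl libraries stood 3.94-fold apart, and the 2 Olfm4CKO libraries 1.09-fold. The group means were 41.3 ± 34.8 and 6.06 ± 0.382 CPM (SD, n = 2 each), a ratio of 6.82. The log2 fold change came to -2.77 ± 0.56 (SE), with a 95% interval of -4.01 to -1.53 (edgeR adjusted p = 0.9998). Without Ctrl replicate 1 it was -1.47 (edgeR adjusted p = 0.623), with the remaining Ctrl library 2.76 times the Olfm4CKO mean. The value lay between -3.43 and -1.47 over the 4 libraries left out. It was -3.43 without Ctrl replicate 2, which leaves the Ctrl library with Y-linked reads, and -2.81 without Olfm4CKO replicate 1. Each of these fits leaves 1 library in a group and cannot measure the spread of that group. In a depot measured in bulk, fewer cells that express a gene and less RNA per cell cannot be told apart. The 4 other Cyp2b genes, Cyp2b9, Cyp2b13, Cyp2b19 and Cyp2b23, had 0 counts in every library. The largest overlap of Cyp2b10 with another gene was with Cyp2b13, which held 6.9% of its stretches of 50 transcript bases.

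Cyp2e1, which oxidises ethanol, acetone and other small molecules, had its levels in the same order. It had 70.8 and 23.4 CPM in Ctrl replicates 1 and 2 and 16.0 and 7.76 CPM in Olfm4CKO replicates 1 and 2 (chromosome 7, 140763819 to 140774990). Ctrl replicate 1 stood well above the other 3 libraries, and the groups did not overlap. The group means were 47.1 ± 33.6 and 11.9 ± 5.79 CPM (SD, n = 2 each), and the log2 fold change -1.99 ± 0.53 (SE, edgeR adjusted p = 0.9998), with a 95% interval of -3.16 to -0.82. Without Ctrl replicate 1 it was -0.98 (edgeR adjusted p = 1.00). Leaving out Ctrl replicate 2 gave -2.57, and leaving out Olfm4CKO replicate 1 gave -2.58, again with 1 library in a group, whose spread was not measured. Cyp2b10 and Cyp2e1 were the 2 members that passed in those fits, where 0.190% of genes tested did so in each. No member passed without Ctrl replicate 1 (0.175% of genes) or without Olfm4CKO replicate 2 (0.0420%).

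**Figure D4:**
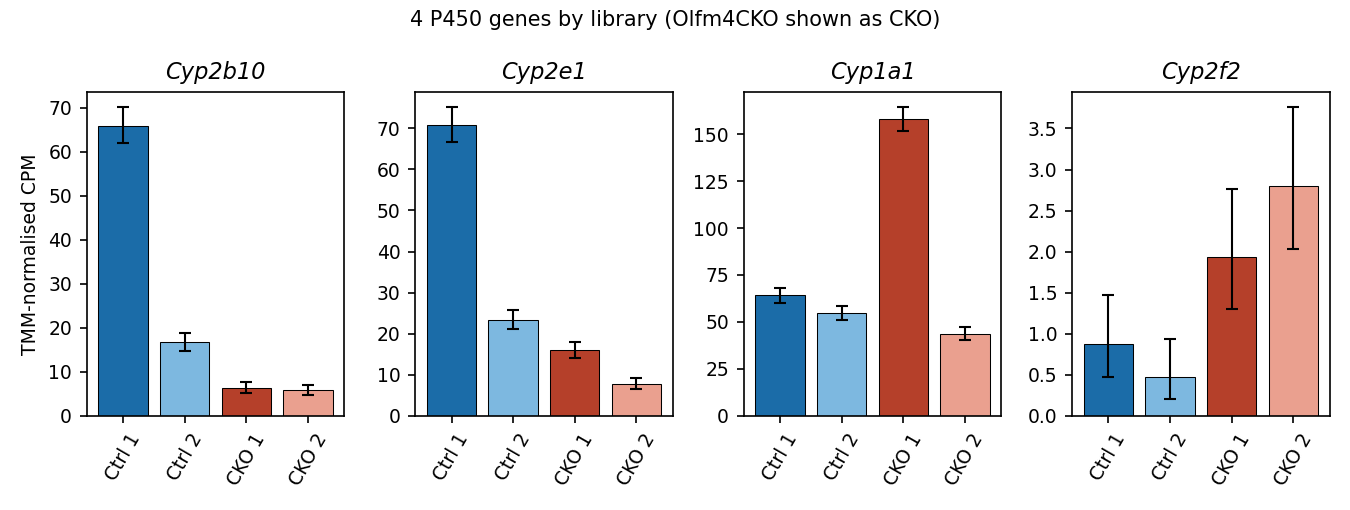
TMM-normalised CPM of Cyp2b10, Cyp2e1, Cyp1a1 and Cyp2f2 in each library (bars), with the exact 95% Poisson interval of the count (lines), which covers counting error only. The axes differ between panels. The Ctrl bars of Cyp2b10 reach 65.9 and 16.7 against 6.33 and 5.79 in Olfm4CKO, and the Cyp1a1 bar of Olfm4CKO replicate 1 reaches 158.

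Cyp2e1 is known for its abundance in liver, and Cyp2b10 for its induction there. All 8 hepatocyte markers had 0 counts in both Ctrl libraries, where Cyp2b10 and Cyp2e1 were highest. They summed to 6.33 CPM in the first Olfm4CKO library and 0.445 CPM in the second, with albumin at 71 and 6 counts. Apoh and Cps1 had 0 counts in all 4 libraries. Among members with few reads, Cyp3a11 had 0, 0, 5 and 2 counts and Cyp8b1 0, 0, 2 and 0 in Ctrl replicates 1 and 2 and Olfm4CKO replicates 1 and 2; both were picked after their counts were seen, and the part of the hepatocyte markers in these counts was not tested. The receptor CAR itself, encoded by Nr1i3, had 2, 4, 9 and 5 counts in these libraries, too few to be tested. The related receptor PXR, Nr1i2, had 0 counts in all.

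Cyp2f2, known from airway club cells, where it activates naphthalene, had a difference in the other direction on few reads. It had 14 and 8 counts in Ctrl replicates 1 and 2 and 30 and 44 counts in Olfm4CKO replicates 1 and 2, or 0.877, 0.474, 1.94 and 2.80 CPM. Both Olfm4CKO libraries lay above both Ctrl libraries. The log2 fold change was 1.80 ± 0.69 (SE, edgeR adjusted p = 0.9998), with a 95% interval of 0.28 to 3.32, and was 1.44 to 2.30 with 1 library absent. Cyp2f2 lies in the same cluster as Cyp2b10 (13 genes, chromosome 7, 25802469 to 27158564). Its neighbour Cyp2t4, which lies 20054 bases away and was picked after its counts were seen, had 1, 1, 9 and 7 counts in the same order of libraries, below the level for description. Cyp2s1 in the same cluster had 1, 7, 6 and 3 counts.

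Cyp1a1, which oxidises polycyclic aromatic hydrocarbons, was high in 1 library of Olfm4CKO. It had 64.1 and 54.7 CPM in Ctrl replicates 1 and 2, and 158 and 43.7 CPM in Olfm4CKO replicates 1 and 2 (chromosome 9, 57687928 to 57703824). The groups overlapped, since the second Olfm4CKO library was the lowest of the 4. The log2 fold change was 0.76 ± 0.51 (SE, edgeR adjusted p = 0.9998) and turned to -0.42 without Olfm4CKO replicate 1. Cyp1b1, which acts on estradiol and retinoids, had 10.4, 4.09, 5.30 and 8.08 CPM in the order Ctrl 1, Ctrl 2, Olfm4CKO 1, Olfm4CKO 2. It was highest in Ctrl replicate 1 and its groups overlapped (log2 fold change -0.11 ± 0.52 SE, -0.62 to 0.71 over the libraries left out). Their sister gene Cyp1a2 had 0 counts. The aryl hydrocarbon receptor gene Ahr had 18.9, 8.42, 14.5 and 9.35 CPM, and its partner Arnt 44.0, 31.8, 30.7 and 43.6 CPM. Of 4 tested genes on the list of other targets of this receptor, all 4 lay above 0 and 0 passed edgeR's threshold (median log2 fold change 0.38). One of them, Tiparp, had 59.4 and 32.6 CPM in Ctrl and 21.2 and 72.1 CPM in Olfm4CKO, with overlap (log2 fold change 0.02 ± 0.52 SE, -1.12 to 0.67 with 1 library absent, and -0.17 by limma-voom).

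Members with roles in sterol, vitamin D and retinoid metabolism differed widely in level. Among the 20 described genes, Cyp27a1 had the highest mean per kb in Ctrl and Cyp2r1 the lowest. Cyp27a1 had 60.2 and 61.4 CPM in Ctrl replicates 1 and 2 and 40.8 and 55.9 CPM in Olfm4CKO replicates 1 and 2. Neither Olfm4CKO library reached the lower Ctrl library (log2 fold change -0.33, 95% interval -1.07 to 0.41, edgeR adjusted p = 0.9998). Cyp39a1, an oxysterol hydroxylase, had 34 and 42 counts in Ctrl against 16 and 12 in Olfm4CKO. These are 2.13 and 2.49 against 1.03 and 0.763 CPM, and the groups did not overlap. Its log2 fold change of -1.36 ± 0.65 (SE, 95% interval -2.78 to 0.07, edgeR adjusted p = 0.9998) kept its sign whichever library was left out, at -1.57 to -1.16. Cyp7b1, the other oxysterol hydroxylase with reads, lay just under the level for description with 8, 11, 6 and 6 counts in the order Ctrl 1, Ctrl 2, Olfm4CKO 1, Olfm4CKO 2. Cyp2r1, a vitamin D hydroxylase, lay just above it with 15, 5, 14 and 9 counts (log2 fold change 0.26 ± 0.83 SE). Cyp26b1, which breaks down retinoic acid, had 4.57, 4.68, 4.97 and 3.75 CPM, within 1.33-fold of each other (log2 fold change -0.09, 95% interval -1.14 to 0.97). Of the genes for steroid hormone synthesis, Cyp11a1, which cleaves the cholesterol side chain, had 0 and 8 counts in Ctrl and 6 and 6 in Olfm4CKO. Cyp11b1, Cyp11b2, Cyp17a1, Cyp19a1 and Cyp21a1 had 0 counts in all libraries.

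Members that oxidise fatty acids and eicosanoids had intervals that included 0. Cyp2j6, of a subfamily that makes epoxides of arachidonic acid, had 34.6 and 31.4 CPM in Ctrl replicates 1 and 2 and 23.4 and 23.1 CPM in Olfm4CKO replicates 1 and 2. The libraries of each group lay close together and apart from those of the other, by 1.42-fold in the means. The log2 fold change was -0.51 ± 0.32 (SE, 95% interval -1.22 to 0.21, edgeR adjusted p = 0.9998), and -0.56 to -0.44 over the libraries left out. Its neighbour Cyp2j9, 4119 bases away, had 2.88, 3.62, 3.62 and 2.42 CPM in the order Ctrl 1, Ctrl 2, Olfm4CKO 1, Olfm4CKO 2, with overlapping groups. Cyp2u1, a hydroxylase of long-chain fatty acids, had 10.8 and 13.8 CPM in Ctrl against 7.75 and 10.3 CPM in Olfm4CKO, without overlap. Its log2 fold change was -0.45 ± 0.39 (SE), and -0.67 to -0.24 with 1 library absent.

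The Cyp4 enzymes add oxygen at the far end of fatty acids and leukotrienes. Cyp4b1 had 39.9 and 39.7 CPM in Ctrl and 51.0 and 35.2 CPM in Olfm4CKO, and Cyp4f13 had 479 and 504 counts against 540 and 317. For both, the Ctrl libraries lay between the 2 Olfm4CKO libraries in CPM. Cyp4v3, the mouse counterpart of human CYP4V2, had 20.9 and 28.1 against 21.1 and 17.5 CPM, and Cyp4f16 8.52 and 12.2 against 11.6 and 9.79 CPM, both with overlap. Up to 16.3% of the 50-base stretches of Cyp4f16 are shared with Cyp4f37, which had 0 counts. Cyp4f17 had 4.88 and 6.17 CPM in Ctrl and 9.30 and 6.87 CPM in Olfm4CKO, without overlap (log2 fold change 0.55 ± 0.44 SE, 0.33 to 0.74 with 1 library absent). Cyp4f18, which inactivates leukotrienes in myeloid cells, had 1.00, 3.85, 1.55 and 2.29 CPM in the order Ctrl 1, Ctrl 2, Olfm4CKO 1, Olfm4CKO 2. The summed level of 5 macrophage markers was also highest in Ctrl replicate 2, at 197 CPM against 89.4, 96.0 and 108 CPM in the other 3 in that order, and its part in the value was not tested. Without Ctrl replicate 2 the log2 fold change of Cyp4f18 turned from -0.34 to 0.94. Cyp4a10, Cyp4a14 and Cyp4a32, which the receptor PPARA induces in mouse liver, had 7, 9 and 10 counts in Ctrl replicate 1 and between 0 and 3 counts in each other library. Pdk4, another PPARA target, was also highest there, at 2729 CPM, against 1800 CPM in Ctrl replicate 2 and 859 and 2470 CPM in Olfm4CKO.

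Among members outside these groups, Cyp2d22, of the subfamily that holds human CYP2D6, had 41.1, 62.3, 66.5 and 60.9 CPM in the order Ctrl 1, Ctrl 2, Olfm4CKO 1, Olfm4CKO 2 (log2 fold change 0.30 ± 0.35 SE). Its lowest level was in Ctrl replicate 1, and the log2 fold change was 0.029 without that library and 0.64 without Ctrl replicate 2. Cyp20a1, an enzyme with no settled substrate, was the most even member, with 13.6, 12.3, 13.5 and 13.7 CPM (log2 fold change 0.07, 95% interval -0.71 to 0.85).

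Summed over all 94 genes, P450 transcripts came to 491 CPM in the first Ctrl library, 414 in the second, and 482 and 334 CPM in the first and second of Olfm4CKO, so the groups overlapped. The make-up of these sums differed. Cyp2b10 gave 13.4% and 4.04% of P450 reads in Ctrl and 1.31% and 1.73% in Olfm4CKO, and Cyp2e1 14.4% and 5.64% against 3.31% and 2.32%. Cyp1a1 gave 32.7% in Olfm4CKO replicate 1 and 13.1% to 13.2% in the other 3. Without these 3 genes the sums lay between 277 and 320 CPM. Of the 20 described genes, 5 had a level over 3-fold apart between the 2 libraries of a group, against 9.73% of all genes tested: Cyp2b10, Cyp2e1, Cyp1a1, Cyp4f18 and Cyp2r1.

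**Figure D5:**
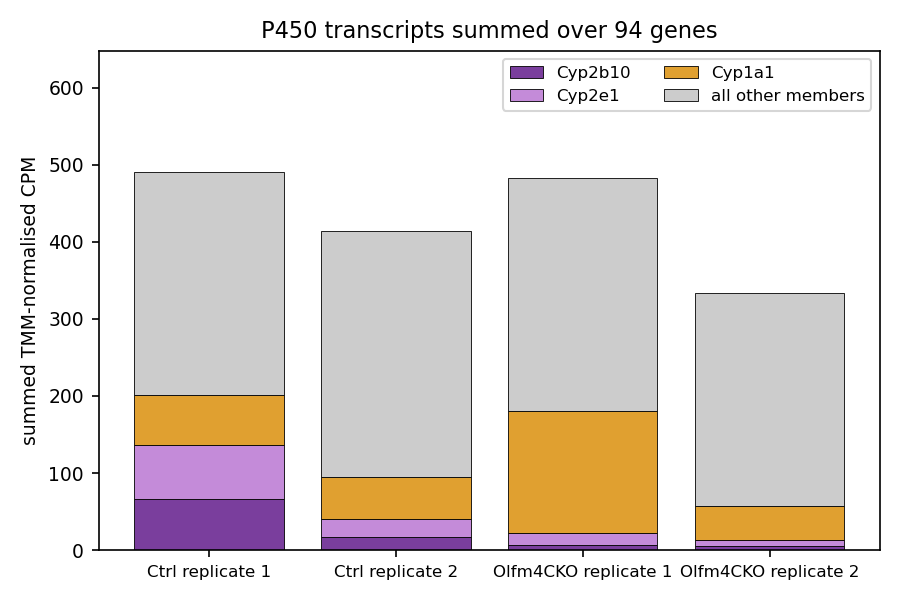
Summed TMM-normalised CPM of the 94 P450 genes in each library, split into Cyp2b10, Cyp2e1, Cyp1a1 and all other members. The totals of the 2 groups overlap, the Cyp2b10 and Cyp2e1 parts are largest in Ctrl replicate 1, and the Cyp1a1 part in Olfm4CKO replicate 1.

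The proteins that pass electrons to P450 enzymes were mostly well expressed. Of 10 tested redox partners 0 passed edgeR's threshold, with 7 below 0 and a median log2 fold change of -0.09. P450 oxidoreductase, Por, had 268 and 300 CPM in Ctrl replicates 1 and 2 and 211 and 230 CPM in Olfm4CKO replicates 1 and 2, without overlap (log2 fold change -0.37 ± 0.34 SE). Cytochrome b5, Cyb5a, had 110 and 116 against 208 and 157 CPM, also without overlap (log2 fold change 0.69, 95% interval -0.07 to 1.45, edgeR adjusted p = 0.9998). Fdx1, the mitochondrial ferredoxin that serves Cyp27a1, had 95.2 and 122 against 115 and 85.8 CPM, with overlap. Alas1, the first enzyme of heme synthesis, had 314 and 313 against 404 and 478 CPM, without overlap (log2 fold change 0.49, 95% interval -0.27 to 1.26).

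Receptors and factors that control P450 genes did not pass either. Of 23 listed, 16 had enough reads, 8 lay below 0 and 8 above, 0 passed edgeR's threshold, and the median log2 fold change was 0.01. Ppara had 292 and 236 CPM in Ctrl and 182 and 462 CPM in Olfm4CKO, with overlap. Pparg had 360 and 311 against 261 and 220 CPM, and Rxra, the partner of CAR and the PPARs, 96.4 and 74.9 against 53.6 and 78.4 CPM. Of the other genes reported to be induced through CAR or PXR in liver, 13 of 23 were tested and 0 passed edgeR's threshold. Of these 13, 4 lay below 0, against 51.4% of all genes tested, and 9 above (median log2 fold change 0.31). The groups did not overlap for 7 of the 13, among them Alas1, against 24.6% of all genes tested. An edgeR unadjusted p below 0.05 was found for 1 of the 13, against 2.11% of all genes. Any part of CAR in the level of Cyp2b10 was not tested. Ephx2, which hydrolyses fatty acid epoxides, had 304 and 362 against 333 and 216 CPM, with overlap. Among P450 genes outside the naming rule, Cyp51 of cholesterol synthesis had 16.2 and 34.9 against 15.6 and 25.9 CPM, and Tbxas1 and Ptgis, of thromboxane and prostacyclin synthesis, had 1.00 and 3.38 against 0.452 and 2.42 CPM and 1.69 and 5.28 against 1.03 and 2.74 CPM. All 3 were higher in replicate 2 than in replicate 1 of each group.

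Marker genes of the depot's cell types were summed in each library. All 9 brown adipocyte markers were expressed, with sums of 17051 and 21478 CPM in Ctrl replicates 1 and 2 and 17120 and 10209 CPM in Olfm4CKO replicates 1 and 2. Endothelial markers summed to 784 and 734 against 1242 and 1158 CPM, and 4 Schwann cell markers to 171 and 305 against 77.9 and 81.8 CPM. Neither of these last 2 sums overlapped between the groups. By single genes, 3 of 4 on each list did not overlap, against 24.6% of all genes tested. Pecam1 of the endothelial list and Sox10 of the Schwann cell list overlapped. The endothelial sum was higher in Olfm4CKO, where Cyp2b10 was lower. The Schwann cell sum was lower in Olfm4CKO, and highest in Ctrl replicate 2, where Cyp2b10 was highest in Ctrl replicate 1. The part of both lists in the difference of Cyp2b10 was not tested. Stromal markers (405 and 543 against 232 and 528 CPM), mural markers (671 and 470 against 604 and 498 CPM) and skeletal muscle markers (39.6 and 9.19 against 112 and 12.5 CPM) overlapped. Adrenal and gonadal markers summed to 2.44 and 2.67 against 6.46 and 3.63 CPM without overlap, with Hsd3b1 at 0 in all libraries, and their part in the counts of Cyp11a1 was not tested.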

How the data were processed

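The deposited values are raw counts of reads: the table is named for FPKM, but it holds whole numbers with unequal column sums. The submitters' processing notes list cutadapt 1.11, HISAT2 2.1.0, featureCounts 1.6.0 and the build mm10. No source used here states the annotation or strand setting, so overlapping, antisense or similar genes may share reads. Of 35978 rows, 3 belong to a broken entry without counts, and 27 symbols had become dates. Columns were matched to samples by name. Both replicate 3 columns, blank in 11702 rows, entered no comparison.

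The fit used edgeR 4.0.16 in R 4.3.3 on 2 libraries per group: filterByExpr (minimum count 10, minimum total 15), TMM, quasi-likelihood test on group, and Benjamini-Hochberg adjustment over 13573 genes with a threshold of 0.05. The standard error is the log2 fold change over the square root of F. The replicates were not copies of each other: the 2 Ctrl libraries gave a chi-square of 85.2 for each degree of freedom, and the 2 Olfm4CKO libraries 130.1. With 2 against 2 libraries the smallest p of an exact permutation test is 0.333, and none is given. Alternatives covered scaling, filter, DESeq2 1.42.0, limma-voom (limma 3.58.1), each library left out and the replicate number as a block. The steps were tested on simulated data. Every described member could be named; of other lists, any tested redox partner, regulator or P450 outside the rule, and the genes with the highest mean. Members and lists were chosen with earlier results of these data known.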

Additional observations from a re-analysis of the deposited data

How the results depend on the processing

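With 1 library left out, the lone library of its group is assumed to vary as the others do. The number of genes called was then 6 to 27 (0 with all 4), of P450 members called 0 to 2, and of members whose groups did not overlap 13 to 15 (8 with all 4; a lone library overlaps less easily). The members' median log2 fold change was -0.20 to 0.077, that of Cyp2b10 -3.43 to -1.47, and 17 members moved over 1.5 times or changed sign. The 9 members that changed sign had ranges of -0.19 to 0.34 (Cyp4f16), -0.55 to 0.21 (Cyp4f13), -0.62 to 0.71 (Cyp1b1), -0.41 to 0.15 (Cyp2j9), -0.16 to 0.35 (Cyp4b1), -0.28 to 0.10 (Cyp26b1), -0.34 to 1.29 (Cyp2r1), -1.004 to 0.94 (Cyp4f18), -0.42 to 1.40 (Cyp1a1). Of 15 other named genes 9 changed sign, with ranges of -0.32 to 0.083 (Fdx1), -0.66 to 0.50 (Ahr), -0.31 to 0.22 (Arnt), -0.54 to 0.83 (Ppara), -0.75 to 0.37 (Cyp51), -2.26 to 0.53 (Tbxas1), -1.75 to 0.17 (Ptgis), -1.12 to 0.67 (Tiparp), -1.40 to 0.15 (Pdk4). The causes were not tested. DESeq2 called 4 genes, 1 of them a member, Cyp2b10 (-2.77, DESeq2 adjusted p = 0.004594), and the others Y-linked. The labels link same-numbered libraries by the number only. Deviations from the group mean in Ctrl replicate 1 and Olfm4CKO replicate 1 had a correlation of 0.003. With 2 libraries per group, replicate 2 gives the same value by construction, so this cannot show whether same-numbered libraries share anything else. With the replicate block, edgeR called 4 genes, among them Xist and 1 member, Cyp2b10 (-2.46, edgeR adjusted p = 0.00173), and Tiparp was -0.16. By limma-voom Cyp1b1 was 0.014 and Tiparp -0.17, and with total counts only Arnt was 0.0069. Over these and the other scalings and filters, no other named gene changed sign and no other member was called. Replicate variation was 32.6% (edgeR's biological coefficient) with 2 libraries per group, and a gene's 95% interval reached 0.89 log2 units to each side at the median, and genes with few counts were less precise.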
